A study of Mus musculus with 30 samples.

Results

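Smooth muscle and pericyte genes were followed in the ovaries of adult mice, some of them given dextran sulfate sodium (DSS) before puberty. The 10 genes were Acta2, Actg2, Myh11, Myl9, Tagln, Cnn1, Des, Rgs5, Pdgfrb and Notch3, found by their names among the 50600 genes of the deposited table. All 10 had a mean of at least 5 normalized counts over the mice and were thus among the 14646 genes tested. RNA came from 30 whole ovaries of C57BL/6 mice, the left and the right of each of 15 animals. 7 mice had drunk 3% DSS, a polysaccharide that injures the lining of the colon, for 7 days while immature, which gave 7 left and 7 right ovaries. 8 littermates without DSS served as controls and gave 8 left and 8 right ovaries. Libraries were made by CEL-Seq, which reads the 3′ ends of transcripts, and held 3095386 to 8564770 reads with a median of 4305814. Values are normalized counts, the reads of a gene scaled by the library's size factor. Mice carry the numbers of the labels, as in DSS_11.2. Each mouse is 1 replicate, so p-values measure the spread between mice.

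Smooth muscle contracts when the myosin motor pulls on actin filaments. The genes of this machinery are known to be switched on by serum response factor (SRF) and its partner myocardin through a DNA element called the CArG box. In the ovary such cells lie in the walls of arteries and in the outer theca, and the neighbouring oviduct has a wall of smooth muscle around a lining that secretes oviductal glycoprotein, the product of Ovgp1. Pericytes wrap capillaries. They depend on platelet-derived growth factor from the endothelium, which acts on the receptor PDGFRB, and on NOTCH3, which answers ligands of the endothelium. In a whole ovary, fewer cells of a type and less RNA per cell cannot be told apart.

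7 of the 10 genes belong to the contractile apparatus. Acta2 and Actg2 encode the actins of vascular and of visceral smooth muscle, Myh11 the smooth muscle myosin heavy chain and Myl9 its regulatory light chain. Tagln (transgelin) and Cnn1 (calponin) encode proteins that bind actin, and Des encodes desmin, the intermediate filament of muscle. The other 3 genes mark the mural cells of small vessels. Rgs5 encodes a GTPase-activating protein that damps G protein signalling in pericytes, and Pdgfrb and Notch3 encode the receptors named above. On the coordinates of the deposited table, build GRCm38.p5, Acta2 lies on chromosome 19 from 34240790 to 34255336 on the minus strand, and Myh11 on chromosome 16 from 14194227 to 14291408 on the minus strand. Des lies on chromosome 1 from 75360329 to 75368879 on the plus strand, and Rgs5 on the same chromosome from 169655501 to 169696113 on the plus strand. Acta2 and Actg2 encode closely related actins, and how reads matching both were counted is not given in the sources used here, so the split between them is uncertain. Tagln, Des and Notch3 overlap genes on the other strand. Whether counting used the strand is not given either, so their values may include or lack reads shared with those partners. The partners' own highest values were 21.26 (Pcsk7) and 9.08 (RP23-228B2.5) beside Tagln, 2.26 (Gm15179) beside Des and 2.17 normalized counts (Gm17276) beside Notch3. Ovgp1 itself overlaps Gm42890 on the same strand, whose highest value was 240.95.

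Promoters of 6 of the 10 genes (Acta2, Myl9, Cnn1, Des, Rgs5 and Notch3) were taken from RefSeq sequence of build GRCm38.p6. Each covers 250 bases before to 50 bases after the start that RefSeq gives. That start is 34255373 for Acta2, 156775464 for Myl9 and 169655501 for Rgs5, and for Acta2 and Myl9 it is not the end of the gene in the deposited table. Distances are counted from the RefSeq start. Actg2, Myh11, Tagln and Pdgfrb were not matched. Those of Acta2, chr19:34255324-34255623 on the minus strand, and Myl9, chr2:156775214-156775513 on the plus strand, are shown as a pair of genes that moved together, and that of Rgs5, chr1:169655251-169655550 on the plus strand, as one that did not move with them. Capitals mark matches to the CArG box on either strand, with 1 mismatch allowed in its middle 6 letters.
Acta2: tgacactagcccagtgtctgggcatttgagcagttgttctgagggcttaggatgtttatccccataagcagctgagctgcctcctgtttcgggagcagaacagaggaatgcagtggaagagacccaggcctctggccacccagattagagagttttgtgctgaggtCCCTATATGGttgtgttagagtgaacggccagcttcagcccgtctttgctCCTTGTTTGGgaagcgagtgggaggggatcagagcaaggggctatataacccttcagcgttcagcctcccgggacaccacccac
Myl9: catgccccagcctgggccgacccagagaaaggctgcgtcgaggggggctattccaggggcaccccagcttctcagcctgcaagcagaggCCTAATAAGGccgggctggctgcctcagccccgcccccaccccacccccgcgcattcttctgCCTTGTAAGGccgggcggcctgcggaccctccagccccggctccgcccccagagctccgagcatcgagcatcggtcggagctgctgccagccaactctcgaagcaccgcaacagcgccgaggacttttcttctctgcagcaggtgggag
Rgs5: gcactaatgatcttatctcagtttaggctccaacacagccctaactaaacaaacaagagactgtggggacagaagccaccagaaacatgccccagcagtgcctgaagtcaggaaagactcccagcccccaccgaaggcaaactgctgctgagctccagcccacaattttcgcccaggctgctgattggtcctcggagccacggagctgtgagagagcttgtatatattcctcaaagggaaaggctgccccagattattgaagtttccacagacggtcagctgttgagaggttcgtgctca
Acta2 had matches that began 84 and 34 bases before the start, each with a mismatch. Myl9 had an exact match 161 bases before the start and another with a mismatch 99 bases before it. Among 32851 promoters of the same length, 1.63% held an exact match and 9.98% a match with up to 1 mismatch. The other 4 promoters held no such letters. The letters CATTCC, searched on both strands, stood in the Acta2 promoter alone of the 6, as its reverse complement 146 bases before the start, and in 14.7% of all promoters.

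The contractile genes spanned a wide range over the 30 ovaries, and 3 ovaries held the upper end of it. Myh11 had a lowest value of 1070.61, a median of 1564.65 and a highest value of 12992 normalized counts. Acta2 lay between 1416.5 and 7344.65 with a median of 1776.32, and Des between 149.42 and 3270.92 with a median of 265.595. The highest ovary stood 12.3 times above the median for Des, 8.3 times for Myh11 and 4.13 times for Acta2. The left ovary of DSS_11.2 was the highest, the right ovary of control_10.5 the second and the left ovary of DSS_10.4 the third for all 7 contractile genes. The mural genes varied far less. Rgs5 lay between 87.53 and 180.27 with a median of 131.24, Notch3 between 63.99 and 130.39 with a median of 87.91, and Pdgfrb between 21.85 and 64.79 with a median of 36.525 normalized counts. Their coefficients of variation were 17.9%, 15.7% and 24.6%. Counting noise alone, if each read were independent, would give 8.72%, 10.7% and 16.5%. For Myh11 the coefficient of variation was 104%, and such counting noise alone would give 2.1%.

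**Figure D1:**
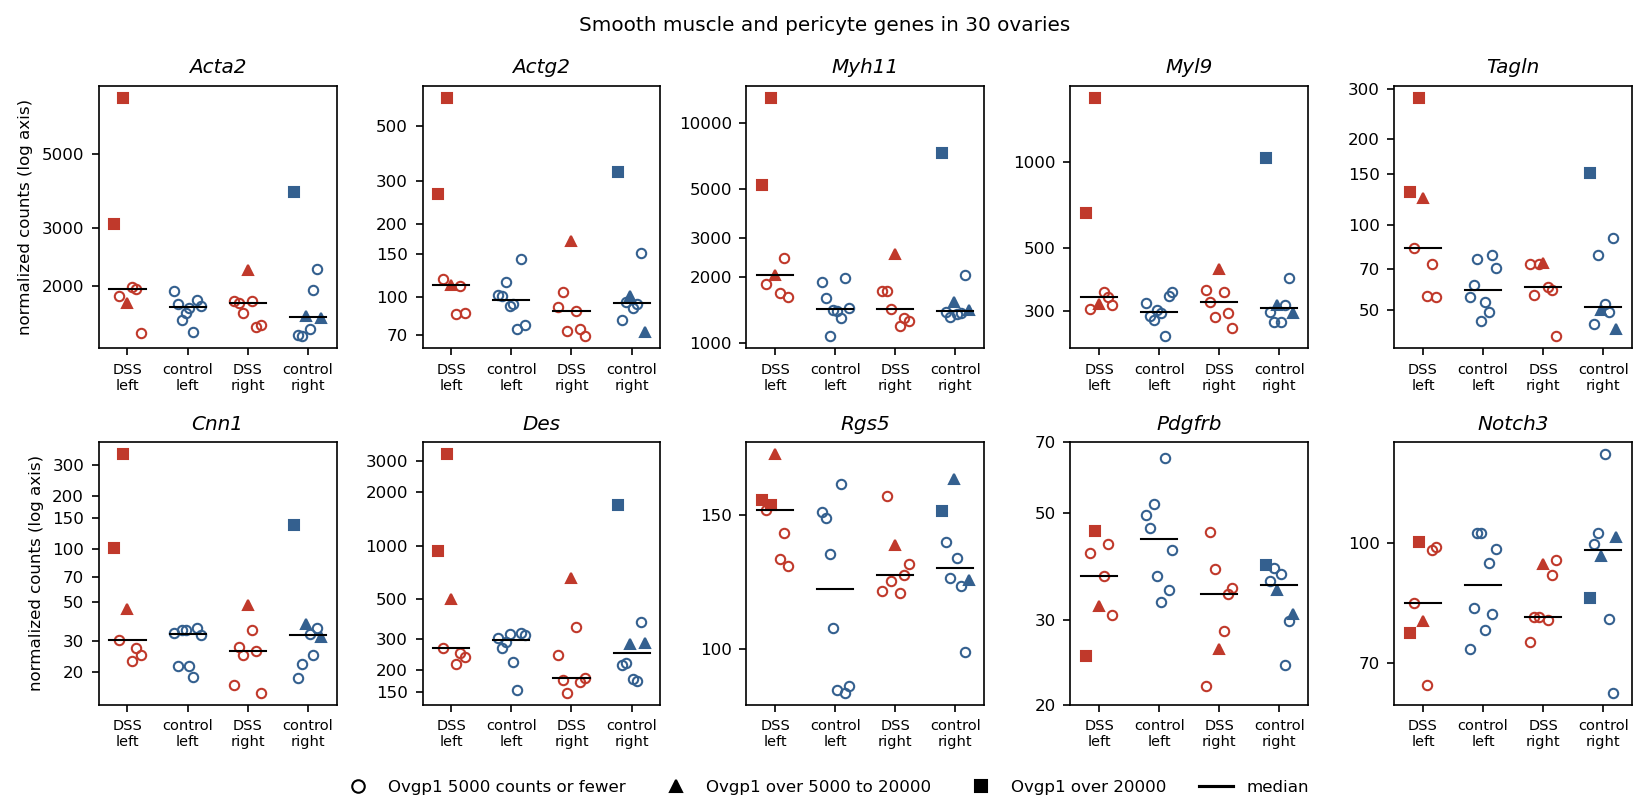
Normalized counts (log axis) of each of the 10 genes in DSS left, DSS right, control left and control right ovaries, 1 point per ovary, with a bar at the group's median. In the contractile genes single ovaries stand far above their group, up to 12992 for Myh11 in a DSS left ovary and 7309.52 in a control right ovary, while Rgs5, Pdgfrb and Notch3 stay within a narrow band.

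Those 3 ovaries were also the ones with the most Ovgp1. It had 66715.91 normalized counts in the left ovary of DSS_11.2, 25161.42 in the left ovary of DSS_10.4 and 41925.28 in the right ovary of control_10.5, and no other ovary exceeded 20000. The other ovary of the same mice had 973.05 in DSS_11.2, 646.48 in DSS_10.4 and 335.18 in control_10.5. In the left ovary of DSS_11.2, Des was 21.9 times the level of that mouse's right ovary, Cnn1 13.9 times, Myh11 9.13 times, Actg2 8.98 times, Myl9 5.85 times, Acta2 4.43 times and Tagln 3.82 times. In the left ovary of DSS_10.4 the ratios ran from 1.71 for Acta2 to 6.02 for Cnn1, and in the right ovary of control_10.5 from 1.99 for Acta2 to 5.59 for Des. Rgs5, Pdgfrb and Notch3 were between 1.2 and 1.26 times the level of the other ovary in DSS_11.2. In DSS_10.4 they were 1.32, 1.15 and 1.03 times, and in control_10.5 they were 1, 0.787 and 1.16 times. These 3 mural genes did not share an excess of that size. The summed 22 other pericyte and mural genes ranked 1, 3 and 4 of 30 in the high ovaries of DSS_11.2, DSS_10.4 and control_10.5, with 1886, 1496 and 1484 normalized counts, against 1393, 1449 and 1478 in the mice's other ovaries.

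Ovaries with less Ovgp1 showed no excess of that size. 4 ovaries had 9168.65 to 18627.73 normalized counts of Ovgp1, and the summed contractile genes reached 3743.47 to 6150.73 in them. That sum was 10371.3 to 26568.2 in the 3 ovaries with over 20000 counts of Ovgp1, and 3306.83 to 5329.71 in the 23 ovaries with at most 5000. The cut at 20000, unlike that at 5000, was added after the data were seen. The right ovary of control_13.4 had 70.5 times the Ovgp1 of its left ovary, with 1.09 times the Myh11, 0.983 times the Acta2 and 0.874 times the Des. The right ovary of control_16.9 had 35.4 times the Ovgp1 of its left ovary, with 0.981 times the Myh11, 0.92 times the Acta2 and 0.906 times the Des. DSS_11.1 had much Ovgp1 on both sides, 9952.96 in the left and 10439.78 in the right ovary, and over the 7 contractile genes its left ovary ranked between 4 (Tagln) and 15 (Acta2) of 30 and its right ovary between 4 and 10 (Tagln). Its left and right ovaries had 502.44 and 660.96 of Des and 46.03 and 48.24 of Cnn1. The highest values in the 23 ovaries were 372.55 and 35.94. Myh11, Actg2 and Myl9 exceeded those 23 in its right ovary alone, Tagln in its left alone and Acta2 in neither.

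**Figure D2:**
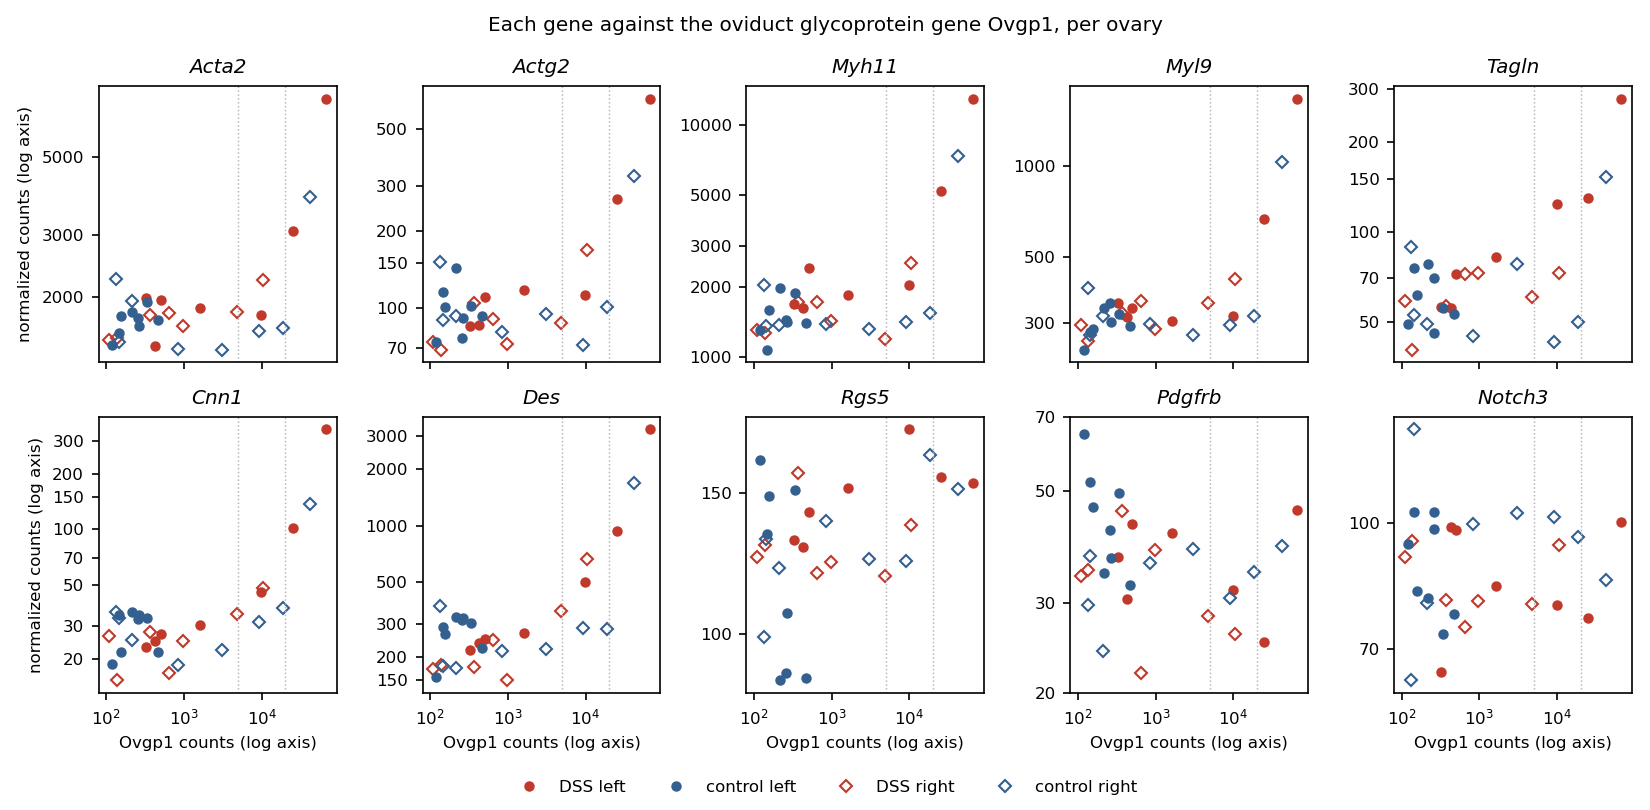
Normalized counts of each gene (log axis) against those of Ovgp1 (log axis) in the 30 ovaries, 1 point per ovary, with DSS and control and left and right marked and dotted lines at 5000 and 20000 counts of Ovgp1. In each of the 7 contractile genes the 3 points with over 20000 counts of Ovgp1 are the 3 highest, and in Rgs5, Pdgfrb and Notch3 they lie within the range of the other points.

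The slope of each gene on Ovgp1 was fitted within mice, as the left minus right difference in log2(normalized count + 1) against the same difference of Ovgp1, with limma over all genes and 15 mice. 4 of the 10 genes were called higher with Ovgp1 at an adjusted p under 0.05 (Benjamini-Hochberg), and none lower. Over all 14645 genes tested, 3.13% were called higher, 0.498% lower and 3.63% in either direction. Myh11 rose by 0.205 log2 units per doubling of Ovgp1 (SE 0.047, adjusted p = 0.021), Des by 0.264 (SE 0.063, adjusted p = 0.0287), Actg2 by 0.187 (SE 0.047, adjusted p = 0.0369) and Cnn1 by 0.234 (SE 0.06, adjusted p = 0.042). Tagln, at 0.123 (adjusted p = 0.063), Myl9, at 0.145 (adjusted p = 0.0669), and Acta2, at 0.106 (adjusted p = 0.119), did not pass. With a pseudocount of 5, 4.31% of all genes were called, and Tagln (adjusted p = 0.0467) and Myl9 (adjusted p = 0.0498) passed. Rgs5 had a slope of 0.036 with a 95% interval of −0.010 to 0.081, Pdgfrb one of −0.022 with an interval of −0.076 to 0.031, and Notch3 one of 0.017 with an interval of −0.023 to 0.057. The intervals of the mural genes lie below the slope of Myh11, and the difference between genes was not tested.

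The calls depended on single mice. With each mouse left out in turn, 0 to 6 of the 10 genes were called, beside 1.47% to 4.6% of all genes. Without DSS_11.2, DSS_10.4 or control_10.5, 0 of the 10 genes were called, and 1.47%, 2.26% and 1.85% of all genes were. Without DSS_13.2, 1 of the 10 was called, and 2.9% of all genes. The slope of Myh11 was 0.143 without DSS_11.2, 0.202 without DSS_10.4, 0.171 without control_10.5 and 0.219 without DSS_13.2. Without all 3 mice that had an ovary with over 20000 counts of Ovgp1, 0 of the 10 genes and 0.137% of all genes were called, and the slopes of the contractile genes lay between −0.011 (Acta2) and 0.038 (Myh11). That alternative was added after the data were seen. With treatment as a term in the fit, 0 of the 10 and 1.72% of all genes were called. The slopes of Myh11 and Des were then 0.181 and 0.280. In the left ovaries alone, all 7 contractile genes passed, as did 13.1% of all genes (8.23% higher). In the right ovaries alone Des passed, at 0.221 (adjusted p = 0.0151), as did 2.21% of all genes.

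**Figure D3:**
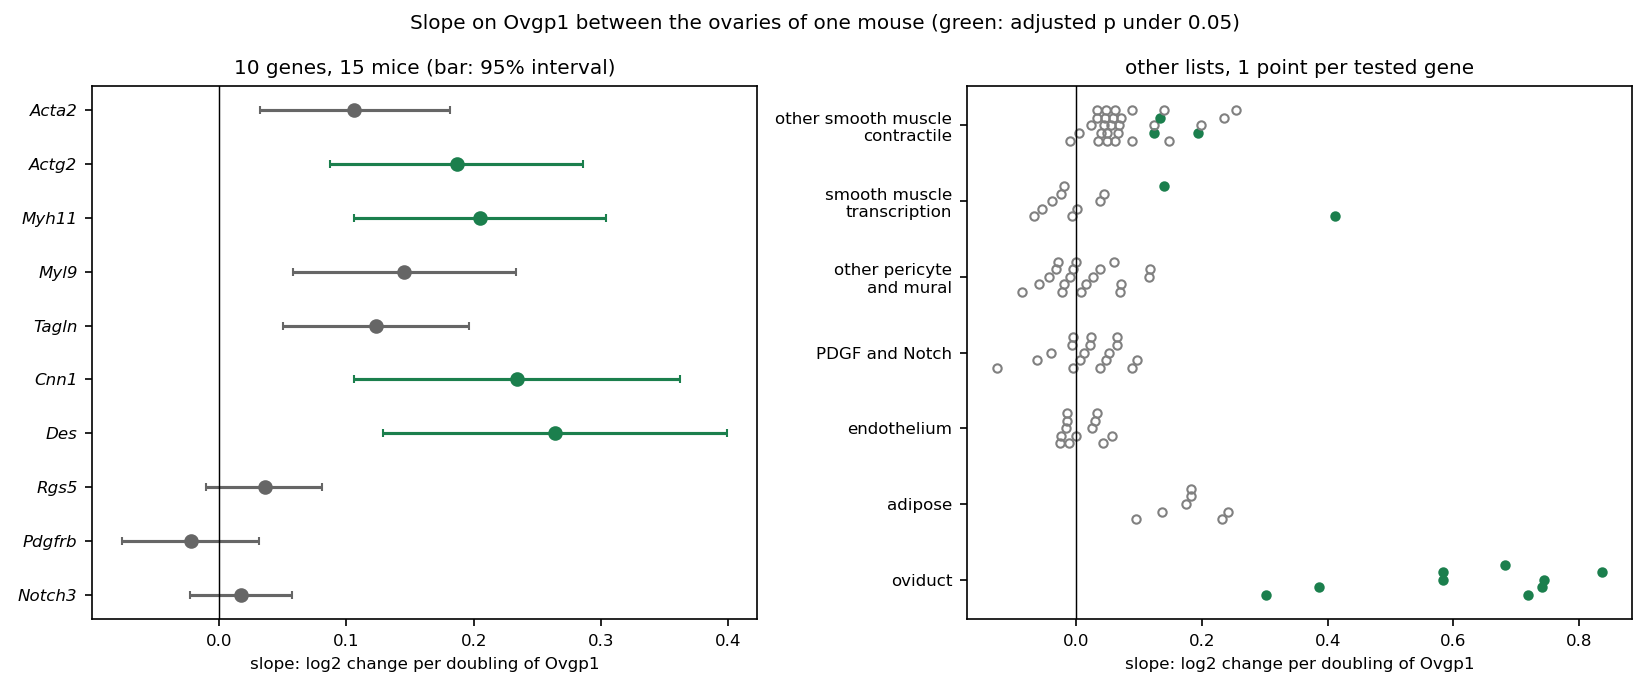
Slope of each gene on Ovgp1 in log2 units per doubling, from differences within 15 mice, with bars for the 95% interval. A second panel shows the slopes for the lists of other contractile, regulator, pericyte and mural, PDGF and Notch, endothelial, adipose and oviduct genes. With all mice the contractile slopes run from 0.106 to 0.264 and the mural slopes lie at −0.022 to 0.036. Fits without the mice with over 20000 or over 5000 counts of Ovgp1 in an ovary are not drawn. In them the contractile and mural slopes lie between −0.080 (Pdgfrb) and 0.078 (Des).

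As a correlation of left minus right log2 differences over 15 mice, Myh11 followed Ovgp1 with Pearson's r = 0.75 (permutation p = 0.00029) and Spearman's rho = 0.72 (permutation p = 0.0031). Over the 7 contractile genes r ran from 0.62 (Acta2, permutation p = 0.008) to that of Myh11, and rho from 0.51 (Cnn1, permutation p = 0.055) to 0.72. For Rgs5 r was 0.41 (permutation p = 0.13) and rho 0.36 (permutation p = 0.19). For Notch3 r was 0.25 (permutation p = 0.38) and rho 0.35 (permutation p = 0.2). For Pdgfrb r was −0.24 (permutation p = 0.41) and rho −0.5 (permutation p = 0.06). These p-values are two-sided and not adjusted over the 10 relations computed. Adjustment was made over all genes in the fitted slopes. Without control_10.5 and DSS_11.2, the mice farthest from the median in Ovgp1, r was 0.59 for Myh11, 0.56 for Des and 0.26 for Acta2. Over the 23 ovaries with at most 5000 counts of Ovgp1, r lay between −0.03 (Actg2) and 0.26 (Tagln) for the contractile genes.

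The excess contractile transcripts of the 3 high ovaries were mixed in other proportions than the contractile transcripts of ovaries with little Ovgp1. Of the summed excess of the 7 genes over the mouse's other ovary, Acta2 made up 24.8% in DSS_11.2, 21.1% in DSS_10.4 and 19.4% in control_10.5. Its share of the summed 7 genes was 37.9% to 49% in the 23 ovaries with at most 5000 counts of Ovgp1, so the ranges did not overlap. Myh11 made up 50.6% to 57.3% of the excess, against 30.8% to 46.7% in the 23 ovaries, and Des 13.6% in DSS_11.2 and 14% in control_10.5, against 4.05% to 8.95%, with the share in DSS_10.4 also above that range. Cnn1 took 1.05% to 1.41% of the excess and 0.391% to 1.01% of the sum in the 23 ovaries. Tagln went the other way, at 0.898% to 0.974% of the excess and 1.19% to 2.28% of the sum in the 23 ovaries. The shares of Actg2 and Myl9 overlapped between the excess and the 23 ovaries. The 3 ovaries were chosen for their Ovgp1 by a cut set after the data were seen, so these shares are a description with no test.

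**Figure D4:**
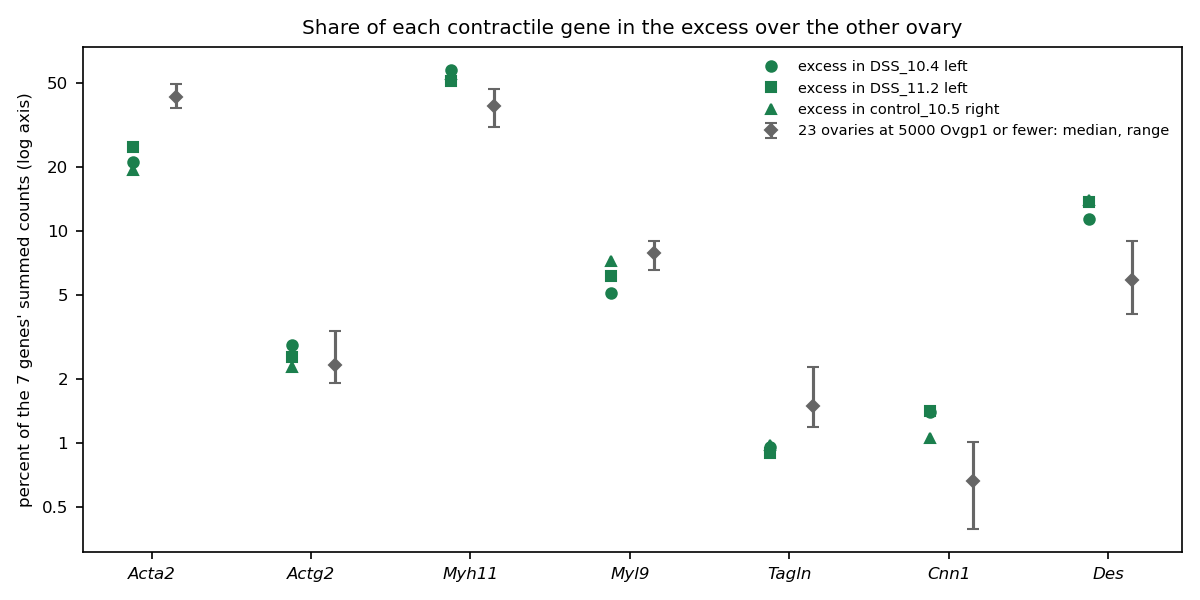
Share of each contractile gene, in percent of the summed normalized counts of the 7 genes, in the excess of the 3 ovaries with over 20000 counts of Ovgp1 and, as a range with its median, in the 23 ovaries with at most 5000. The Acta2 share lies at 19.4% to 24.8% in the excess and at a median of 42.9% in the 23 ovaries, and the Myh11 share at 50.6% to 57.3% and a median of 38.6%.

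Among themselves the 7 contractile genes were correlated at r = 0.84 (Myl9 and Tagln) to 0.97 (Acta2 and Myl9) over the 30 ovaries, on the log2(normalized count + 1) scale. A contractile and a mural gene were correlated at −0.18 (Acta2 and Notch3) to 0.32 (Myh11 and Rgs5), and the 3 mural genes with each other at 0.09 to 0.29. Over the 23 ovaries with at most 5000 counts of Ovgp1, the contractile pairs lay between 0.18 (Myh11 and Cnn1) and 0.77 (Acta2 and Myl9). Acta2 and Notch3 stood at −0.75 in these, and Rgs5 and Pdgfrb at 0.5. These values describe libraries that include both ovaries of a mouse, so the points are not independent. Among 10884 genes with a mean of at least 20 normalized counts, those most like Myh11 over the 30 ovaries were Myl9 (r = 0.96), Acta2 (0.95) and Actg2 (0.94). Those most like Rgs5 were Tes (0.74), Far1 (0.71) and Tns3 (0.67), and those most like Pdgfrb were Arfgef2 (0.71), Ptpra (0.7) and Acss1 (0.66).

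Between DSS and control mice, none of the 10 genes differed beyond the spread between mice. With limma on the mean of both ovaries, 0 of the 10 genes were called, as were 0% of the 14646 genes tested. At an unadjusted p under 0.05 there were 0 of the 10 and 1169 of all genes. edgeR and DESeq2 on recovered reads called 6 and 52 genes, none of them among the 10. Myh11 averaged 2783 ± 2071 normalized counts in DSS mice and 1861 ± 1130 in control mice (SD, n = 7 and 8), with a lowest, median and highest mouse of 1438.4, 1859.66 and 7207.75 in DSS mice and 1193.94, 1451.27 and 4597.24 in control mice. The groups overlapped, and 5 of 7 DSS mice lay above the control median. The log2 difference was 0.48 (SE 0.32, limma adjusted p = 0.723), with a 95% interval of −0.20 to 1.16. Acta2 averaged 2273 ± 1025 in DSS mice and 1832 ± 456 in control mice. Its log2 difference was 0.249 (SE 0.19, adjusted p = 0.755), with 6 of 7 DSS mice above the control median. Des averaged 543 ± 542 in DSS mice and 350 ± 267 in control mice, which gave a log2 difference of 0.42 with an interval of −0.47 to 1.31. The remaining contractile genes had log2 differences of 0.28 (Myl9) to 0.37 (Cnn1), with adjusted p between 0.722 (Tagln) and 0.826 (Cnn1).

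Of the mural genes, Rgs5 averaged 140 ± 12.9 normalized counts in DSS mice and 127 ± 21 in control mice, which gave a log2 difference of 0.15 (adjusted p = 0.718). Pdgfrb averaged 34.6 ± 7.19 in DSS mice and 39.3 ± 5.1 in control mice, which gave a log2 difference of −0.20 with an interval of −0.46 to 0.07 (adjusted p = 0.718), and 2 of 7 DSS mice lay above the control median. Notch3 averaged 85.4 ± 9.26 in DSS mice and 92 ± 11.7 in control mice, which gave a log2 difference of −0.10 (adjusted p = 0.801), and 1 of 7 DSS mice lay above the control median. All 3 genes overlapped between the groups. 2 of the 3 ovaries with over 20000 counts of Ovgp1 came from DSS mice and 1 from a control mouse. Without these 3 mice, the log2 difference was 0.26 for Myh11, 0.09 for Acta2, 0.13 for Des, 0.05 for Cnn1 and 0.04 for Actg2. The cut at 20000 was added after the data were seen. Without every ovary over 5000 counts of Ovgp1, Myh11 stood at 0.10, Acta2 at 0.01, Actg2 at −0.14, Cnn1 at −0.25 and Des at −0.27, and Pdgfrb at −0.25. No call was made for the 10 genes in either.

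**Figure D5:**
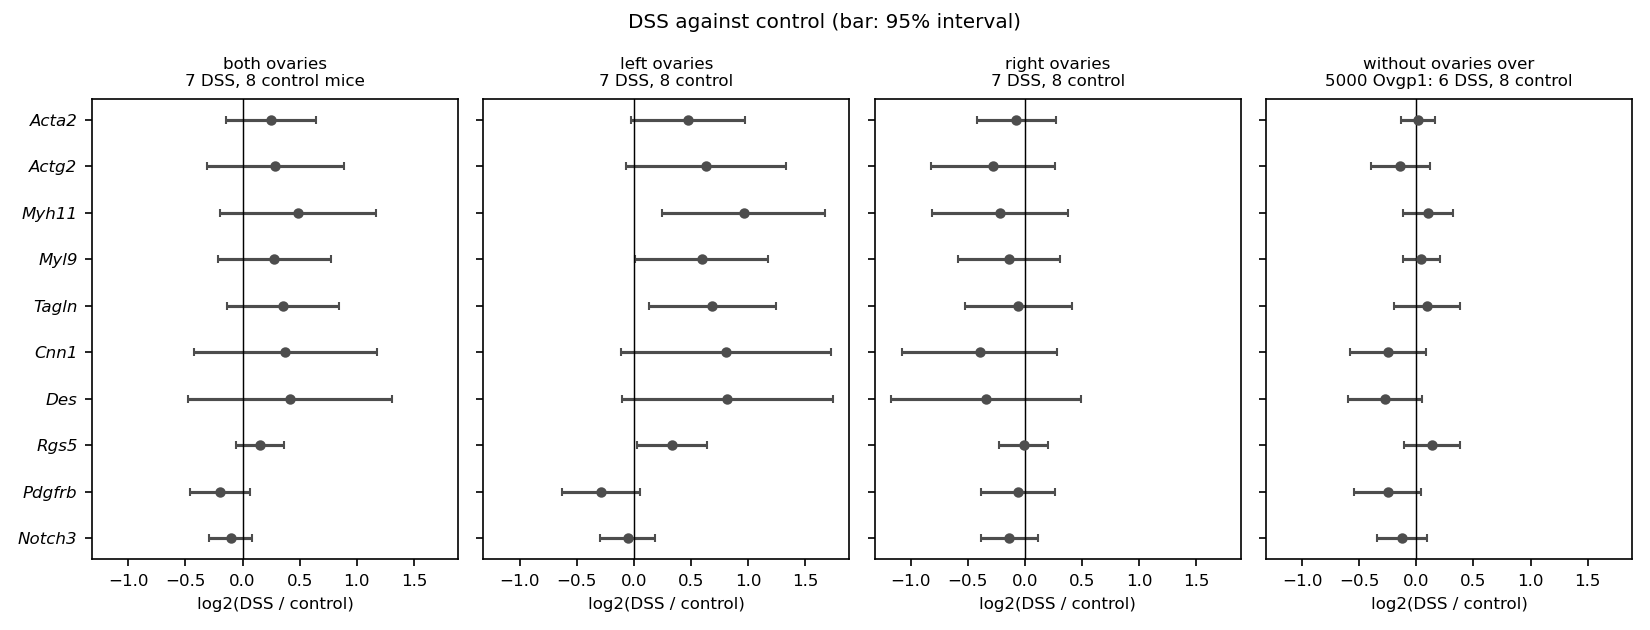
Log2 difference of DSS over control mice for each of the 10 genes, with bars for the 95% interval, for the mean of both ovaries, for the left or right ovaries alone and without ovaries over 5000 counts of Ovgp1. The left ovaries put Myh11 at 0.96 and the right ovaries at −0.22, and the intervals for the mean of both ovaries include 0 in all 10 genes.

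The left and the right ovaries gave opposite signs for DSS against control in the contractile genes. In the left ovaries Myh11 had a lowest, median and highest value of 1613.15, 2031.5 and 12992 in DSS mice and 1070.61, 1426.97 and 1972.01 in control mice. In the right ovaries they were 1196.94, 1423.51 and 2539.55 in DSS mice and 1317.27, 1396.16 and 7309.52 in control mice. The groups overlapped on both sides. The log2 difference of Myh11 was 0.96 on the left (limma adjusted p = 0.403) and −0.22 on the right. The DSS effect on the left minus that on the right was 1.18 (SE 0.46, 95% interval 0.20 to 2.15, adjusted p = 0.643), 1.202 for Cnn1 and 1.16 for Des, and it was called for 0 of the 10 genes and 0% of all genes. At an unadjusted p under 0.05 it stood for 3 of the 10, Myh11, Tagln and Rgs5, and for 1098 genes in all, and edgeR called 1 gene, none of the 10. Both DSS ovaries with over 20000 counts of Ovgp1 were left ovaries and the control one was a right ovary. With Ovgp1 as a covariate the difference was 0.30 for Myh11, 0.11 for Cnn1 and −0.20 for Des, the 9 genes other than Des kept their sign, and none of the 10 was called.

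Between left and right ovaries of the same mouse, 0 of the 10 genes were called by limma with the mouse as a block, against 10.2% of all 14646 genes, 4.56% higher and 5.6% lower in left ovaries. 1 of the 10, Pdgfrb, had an unadjusted p under 0.05, as had 3464 genes in all, and edgeR and DESeq2 called none of the 10. Pdgfrb averaged 40.9 ± 10 normalized counts in left ovaries and 33.3 ± 6.39 in right ovaries (SD, n = 15 each), with a lowest, median and highest value of 25.17, 41.29 and 64.79 on the left and 21.85, 34.61 and 45.62 on the right. The left ovary was the higher one in 12 of 15 mice, 5 of 7 DSS mice and 7 of 8 control mice. The log2 difference was 0.28 (SE 0.10, 95% interval 0.07 to 0.49, adjusted p = 0.0891). Rgs5 had a log2 difference of 0.01 with an interval of −0.16 to 0.19, and Notch3 one of −0.04 with an interval of −0.19 to 0.12. The contractile genes had log2 differences of 0.09 (Myl9) to 0.36 (Des), with single mice from −2.48 (control_10.5) to 4.44 (DSS_11.2) in Des. Myh11 was higher on the left in 9 of 15 mice, with a median difference of 0.04.

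Other genes of the same cells were counted for comparison. Of 30 other contractile genes tested, 3 rose with Ovgp1 and none fell: Fhl1, a LIM-domain protein of muscle, by 0.133 log2 units per doubling (adjusted p = 0.0234), Kcnmb1, a subunit of the smooth muscle potassium channel, by 0.194 (adjusted p = 0.031), and Mylk, the kinase of the myosin light chain, by 0.124 (adjusted p = 0.038). Over all genes tested in that fit, 3.13% were called higher and 0.498% lower. The median slope of the 30 was 0.06, against 0.00 over all genes. Of 11 transcriptional regulators tested, 2 rose, Hand2 by 0.412 (adjusted p = 0.0257) and Meis1 by 0.139 (adjusted p = 0.0284), and the median was −0.01. Hand2 was listed at 0 in its lowest ovary and had a median of 1.245 and a highest value of 66.1 normalized counts. Myocd, which encodes myocardin, and Srf, both named here after their values were seen, had slopes of 0.044 (adjusted p = 0.803) and −0.007 (adjusted p = 0.938). Of 19 other pericyte and mural genes, 0 were called in limma's test of the slope, with Anpep at 0.116 (adjusted p = 0.105) and Kcnj8 at 0.118 (adjusted p = 0.122). In the left ovaries alone, where Ovgp1 and treatment were partly confounded, 6 of the 19 were called higher and 1 lower. Of all genes, 8.23% were called higher and 4.91% lower there. In that setting 20 of the 30 other contractile genes were called higher and 0 lower. Over the 30 ovaries Anpep had a median of 46.855 and a highest value of 211.1 normalized counts, and Kcnj8 a median of 19.405 and a highest value of 86.36. Of 17 genes of PDGF and Notch signalling, 0 were called, with Hey1 at 0.097 (adjusted p = 0.126) and Notch2 at 0.088 (adjusted p = 0.165). Without the mice with over 20000 counts of Ovgp1, 0 genes of these 4 lists were called, beside 0.137% of all genes.

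In the DSS comparison, 0 genes of the 4 lists were called. Rgs4, another regulator of G protein signalling, had a log2 difference of 0.49 (limma adjusted p = 0.502), Nexn, which encodes the actin-binding protein nexilin, one of 0.25 (adjusted p = 0.577), and Pdgfb, the ligand of PDGFRB, one of −0.27 (adjusted p = 0.693). Between the sides, 3 of 30 contractile, 1 of 19 pericyte and mural, 2 of 17 signalling and 0 of 11 regulator genes were called, beside 10.2% of all genes. Tpm1, a tropomyosin, was lower in left ovaries by a log2 difference of −0.38 (adjusted p = 0.00197), as was Synm, the intermediate filament protein synemin, by −0.32 (adjusted p = 0.00504), while Vcl, vinculin, was higher by 0.22 (adjusted p = 0.0438). Nid1, a basement membrane protein, was higher in left ovaries by 0.32 (adjusted p = 0.00141). Of the signalling genes, Hes1, a target of Notch, was higher by 0.46 (adjusted p = 0.0064) and Notch4, a receptor of endothelium, lower by −0.35 (adjusted p = 0.025).

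The sums of the oviduct, adipose, fibroblast and mesothelium lists were higher in the 3 high ovaries than in the mice's other ovaries. Those of the theca list and of the skeletal and cardiac muscle list were lower in all 3. The endothelial sum was mixed. All 9 tested genes of an oviduct list rose with Ovgp1 past the threshold, beside 3.13% of all genes called higher. Ovgp1 is itself an oviduct gene, and the list was chosen with earlier results known, so these calls are no independent support. The list's sum ranked 1, 5 and 2 of 30 in the high ovaries of DSS_11.2, DSS_10.4 and control_10.5. The oviduct sum ran from 39.63 to 1993.69 normalized counts in DSS left, 37.64 to 591.86 in DSS right, 14.6 to 64.43 in control left and 34.19 to 994.38 in control right ovaries. The sum of 8 adipose genes ranked 1, 2 and 3, with 11507, 4610 and 4105 normalized counts against 217, 3794 and 3342 in the mice's other ovaries. Of 7 adipose genes tested, 0 passed in limma's test of the slope. In the left ovaries alone, where Ovgp1 and treatment were partly confounded, 6 passed, all higher, beside 8.23% of all genes called higher. The adipose sum ran from 163.47 to 11507 in DSS left, 76.03 to 3794 in DSS right, 149.86 to 3342 in control left and 102.8 to 4105 in control right ovaries. No gene of the oviduct or adipose list was at 0 in every library. Of 12 genes of skeletal and cardiac muscle 3 reached the level for testing, and the list's sum ranked 9, 30 and 27 of 30 in the high ovaries. The sum of 8 fibroblast and stroma genes ranked 1, 5 and 4, with 32599, 21800 and 23624 normalized counts against 15784, 17777 and 18359 in the other ovaries. That of 8 mesothelium and surface epithelium genes ranked 1, 6 and 2, with 7350, 4125 and 5224 against 3602, 3733 and 3884. A sum of 12 endothelial genes ranked 18, 4 and 5. That of the theca list was 8560 in the left ovary of DSS_11.2, the lowest of 30, against 23271 in its right ovary. It was 22386.5 against 24936.8 in DSS_10.4 and 20790.2 against 24359.3 in control_10.5. The part of these tissues in the contractile values was not tested.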

How the data were processed

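The authors deposited a signal per gene and ovary, normalized counts in 1 table of 50600 genes and 30 columns. TopHat, HTSeq and DESeq2 were the tools, and GRCm38.p5 the build, per the submitters' processing notes, and per the labels' protocols each sample was tagged with a pool of 3 CEL-Seq primers. Versions, strand setting and use of molecular identifiers are not given in the sources used here. In each library the values were whole multiples of a step between 0.528 and 1.33, and 99.81% to 100% came out as whole reads within 0.0051, which gave the depths and the reads for edgeR 4.0.16 and DESeq2 1.42.0.

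limma 3.58.1 in R 4.3.3 was applied with trend to log2(value + 1), a scale that understates changes of low genes, for genes whose mean over mice reached 5. Tests were two-sided, with Benjamini-Hochberg adjustment over all genes and a threshold of 0.05. DSS was tested on the mean of both ovaries per mouse, sides with the mouse as a block, since the labels give both ovaries of a mouse 1 number, and the difference between sides and the slope on Ovgp1 on left minus right differences. Correlations used 100000 permutations. The fits were tested on simulated data. Alternatives changed the pseudocount, filter, scaling, tool, mice and covariates.

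All 10 members were named in each comparison. From the other lists, up to 4 called genes with the smallest p were named, or 2 that did not pass, though some of these are not described. The 3 genes most like Myh11, Rgs5 and Pdgfrb were named as well. The members and lists were chosen with earlier results of these data known.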

Additional observations from a re-analysis of the deposited data

Results flagged for a closer look

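In the right ovaries of the 8 control mice, 1 ovary, that of control_10.5, stood apart from the others in 5 contractile genes. Its normalized counts were 3849.64 for Acta2, 7309.52 for Myh11, 1030.37 for Myl9, 136.92 for Cnn1 and 1685.97 for Des. In each, the gap to the next ovary divided by the range of the group, both on the log2(normalized count + 1) scale and 0.53 for Acta2 and 0.75 for Myh11, exceeded Dixon's critical value of 0.526 for 8 samples. 5 of the 40 groups looked at, 10 genes in 4 groups of ovaries, held such an ovary, each time this same one. Chance gives about 1 in 20 for a single group. The contractile genes were correlated over the ovaries, so the 5 are 1 ovary counted repeatedly, and their number cannot be compared with that rate. On the normalized counts themselves 18 groups held an ovary apart: all 7 contractile genes in DSS left ovaries (DSS_11.2), 4 in DSS right ovaries (DSS_11.1: Acta2, Actg2, Myh11 and Des) and all 7 in control right ovaries (control_10.5). The right ovary of control_10.5 is the one with 41925.28 normalized counts of Ovgp1.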

How the results depend on the processing

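The 10 genes were called in no DSS, side or between-side comparison under any alternative run. Over all genes, DSS calls numbered 6 with edgeR, 52 with DESeq2, 11 in left ovaries, 1 in right ovaries, 10 without ovaries over 5000 Ovgp1 counts, 3 with the first number of the mouse name as a term and 0 to 13 when each mouse was left out. In right ovaries the log2 differences turned to −0.075 (Acta2), −0.28 (Actg2), −0.22 (Myh11), −0.059 (Tagln), −0.40 (Cnn1), −0.34 (Des), −0.013 (Rgs5) and −0.14 (Myl9). Without ovaries over 5000 Ovgp1 counts they were −0.14 (Actg2), −0.25 (Cnn1) and −0.27 (Des).

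Between sides, 733 genes were called without mice over 5000 Ovgp1 counts, 115 in DSS mice and 384 in control mice, and 1163 with no replicate block. In control mice the log2 differences were −0.11 (Acta2), −0.185 (Actg2), −0.28 (Myh11), −0.078 (Tagln), −0.28 (Cnn1), −0.19 (Des), −0.15 (Rgs5) and −0.25 (Myl9). Notch3 was 0.009 in DSS mice, and Myl9 −0.016 without mice over 5000. With each mouse left out, Myl9 ran from −0.082 to 0.22, Notch3 from −0.063 to 0.014 and Rgs5 from −0.020 to 0.058. The between-side difference gave 1 call with edgeR and the replicate block and 1 with Ovgp1 as a covariate, which put Des at −0.20, and Notch3 ran from −0.011 to 0.14 with each mouse left out.

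The slope on Ovgp1 gave 1925 calls in left ovaries, 324 in right ovaries, 2 without mice over 5000, 20 without mice over 20000, 1664 with no replicate block, 933 on the oviduct list, 252 with treatment as a term and 216 to 673 with each mouse left out. Of the 10 genes, 7 were called in left ovaries, 1 in right ovaries, 2 with no filter, 6 with a pseudocount of 5, 7 with no replicate block, 7 on the oviduct list, 0 without mice over 5000 or 20000 or with treatment as a term, and 0 to 6 with each mouse left out. Over all genes, 594 were called with no filter and 631 with a pseudocount of 5. The fits on left or right ovaries alone had no treatment term. Slopes changed sign to −0.009 (Acta2), −0.003 (Cnn1) and −0.044 (Rgs5) without mice over 5000, to −0.011 (Acta2), −0.002 (Notch3) and −0.003 (Myl9) without mice over 20000, to 0.002 (Pdgfrb) in right ovaries and to −0.006 (Notch3) in left ovaries. The cause of these changes was not tested.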

Other observations

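The ovaries with much Ovgp1 fell on different sides in the groups. In left ovaries Ovgp1 ran from 324.98 to 66715.9 normalized counts in DSS mice, with a median of 1629.73, and from 120.16 to 468.92 in control mice, with a median of 237.55. In right ovaries it ran from 110.15 to 10439.8 in DSS mice, with a median of 646.48, and from 133.24 to 41925.3 in control mice, with a median of 1950.91. Of 7 keratinocyte genes tested, 6 were called higher in left ovaries, beside 4.56% of all genes, and Trp63 was not called (log2 difference 0.541, limma adjusted p = 0.28). The sum of the keratinocyte list was 331.79 in the right ovary of control_10.5, against 2659 in its left ovary.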
